A study of Rattus norvegicus with 10 samples.

Results

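The genes described here are the subunits of the proteasome and the factors that assemble, activate or inhibit it, in rat chondrosarcoma cells with and without ARSL. They were taken by name: every row whose symbol begins with Psm, then a letter from a to g and a digit, without the interferon-induced subunits Psmb8 and Psmb9. This gave 42 of the 10184 genes in the table, and all 42 were abundant enough to be tested. They comprised 7 subunits of the alpha ring, 7 of the beta ring, 6 ATPases of the cap, 11 other cap subunits, 5 assembly factors, 2 activators and 1 inhibitor. The remaining 3 carry a proteasome name without being a constitutive part. Psmb6l1 is a copy-like relative of Psmb6, Psmc3ip is a factor of meiotic recombination, and Psme3ip1 is a binding partner of an activator. Psma8, Psmb10, Psmb11, Psmd9, Psme2, Psme3 and Psmg2 were not analysed here.

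RCS cells are a line grown from a rat chondrosarcoma, a cartilage tumour, and deposit a cartilage-like matrix. There were 5 ARSL KO libraries of RCS cells in which ARSL, an arylsulfatase of the secretory pathway, was knocked out, and 5 WT libraries of unmodified RCS cells. No treatment was given, all cells grew in DMEM with serum, and RNA was taken 48 h after they were seeded. The labels call the 5 libraries of each genotype biological replicates but state neither the number of KO clones nor the days of culture, so p-values measure the spread between these libraries, and the knockout and the clonal history of the line cannot be told apart. No row was named for ARSL, so the genotype was not checked against its transcript.

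The proteasome degrades proteins that have been marked with ubiquitin. Its core is a barrel of stacked rings: outer alpha rings, which gate the entrance, and inner beta rings, which hold the proteolytic sites. The cap binds the barrel's ends. Its ATPases unfold the substrate and feed it in, and its other subunits recognise ubiquitin and remove it. Separate activators can replace the cap, and chaperones guide assembly. In mammalian cells the transcription factor NRF1, encoded by Nfe2l1, raises many of these genes together when the proteasome is impaired, through antioxidant response elements near their start sites. Chondrocytes secrete large amounts of collagen and proteoglycan, and proteins that fail to fold are returned from the endoplasmic reticulum to the proteasome.

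The windows around the start sites of 4 members are shown because they represent the patterns described below: Psmb7 had the lowest level in WT 3 and WT 4 relative to the other WT libraries, Psmc5 had the same relation among the ATPases, Psmd7 had the largest difference between the genotypes, and Psme4 had neither. Each holds 250 bases before and 50 bases from the annotated start, 5′ to 3′, from RefSeq on the assembly GRCr8. Capitals mark CCAAT, the letters bound by NF-Y, and CCGGAAG, a core of ETS-type sites, on either strand.
Psmb7, chr3:42827421-42827720, minus strand: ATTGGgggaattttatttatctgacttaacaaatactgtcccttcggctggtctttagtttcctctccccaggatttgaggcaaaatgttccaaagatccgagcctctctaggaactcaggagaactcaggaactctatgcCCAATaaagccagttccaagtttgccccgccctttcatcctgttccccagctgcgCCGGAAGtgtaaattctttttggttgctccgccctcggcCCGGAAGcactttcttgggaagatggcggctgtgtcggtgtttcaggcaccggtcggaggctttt
Psmc5, chr10:91687303-91687602, plus strand: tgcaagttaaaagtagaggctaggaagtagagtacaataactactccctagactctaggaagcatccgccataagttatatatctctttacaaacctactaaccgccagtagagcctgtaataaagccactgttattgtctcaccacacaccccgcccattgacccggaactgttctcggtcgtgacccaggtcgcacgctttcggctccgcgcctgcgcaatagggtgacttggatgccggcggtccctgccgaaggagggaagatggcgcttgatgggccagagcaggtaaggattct
Psmd7, chr19:52411267-52411566, minus strand: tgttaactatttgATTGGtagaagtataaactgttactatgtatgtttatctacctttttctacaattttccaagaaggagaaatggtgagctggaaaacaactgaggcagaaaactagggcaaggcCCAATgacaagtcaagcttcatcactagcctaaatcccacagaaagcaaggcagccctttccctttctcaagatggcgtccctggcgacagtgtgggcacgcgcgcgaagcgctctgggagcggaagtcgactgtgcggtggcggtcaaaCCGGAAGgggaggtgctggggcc
Psme4, chr14:108706393-108706692, plus strand: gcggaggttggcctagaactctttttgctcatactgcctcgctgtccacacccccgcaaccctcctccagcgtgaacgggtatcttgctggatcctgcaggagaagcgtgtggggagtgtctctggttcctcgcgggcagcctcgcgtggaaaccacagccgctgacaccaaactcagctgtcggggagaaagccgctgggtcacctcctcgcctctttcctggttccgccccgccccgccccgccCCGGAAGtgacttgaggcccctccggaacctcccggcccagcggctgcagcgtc
Psmb7 and Psmd7 each held both motifs, Psme4 held CCGGAAG alone, and Psmc5 held neither. Windows were found by symbol for 38 of the 42 members. CCGGAAG or its reverse complement was present in 15 of the 38 (39.5%), against 20.9% of the windows of the tested genes and 8.75% of all 33469 windows of this length. This motif was added to the search after the windows had been read. CCAAT was present in 19 (50%), against 39.3% of tested genes and 37.5% of all windows. For the antioxidant response element, the loose form TGANNNNGC was present in 21 (55.3%), against 44.6% and 40.5%, and the strict form TGACTCAGC in 0 of the 38, against 0.37% and 0.415%. Any strict match is also counted as a loose one. These are matches of letters in a short window, not binding sites.

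Recovered reads over the listed genes numbered 2065594 to 2591819 per library. WT 3, WT 4 and, to a lesser extent, ARSL KO 4 stood apart from the other 7 libraries: on the first principal component, with 51.1% of the variance, they scored 28, 26.8 and 7.9, and the others -15 to -3. These 3 libraries were singled out from measured values and no label separates them. Differences between the genotypes below are followed by their value without these 3 libraries. Leaving out libraries chosen by their values narrows the spread within the groups by construction. P-values from that fit are therefore likely too small and its calls too many, and both are given as description only. Of the chondrocyte markers, 13 of 15 had a row and all 13 passed the filter, Col9a1 with 13920 ± 1360 normalised reads in ARSL KO and 17980 ± 3630 in WT (SD, n = 5 each). Between the genotypes 1 of the 13 was called, where 1.14% of all tested genes were. This was Col11a1, which fell to 4392 ± 858 normalised reads in ARSL KO, against 10440 ± 4310 in WT (SD, n = 5 each; difference -1.16, limma adjusted p = 0.0207; -0.85, adjusted p = 1.45e-06, without the 3 libraries). Without them Col9a2, another cartilage collagen chain, was called higher as well (difference 0.33, adjusted p = 0.0483, against -0.028 with all libraries). The share of all tested genes called was then 3.56%. The blood marker Cd68 had 3.77 ± 0.582 normalised reads in ARSL KO and 4.19 ± 3.92 in WT, and the muscle marker Des had 9.11 ± 5.36 and 10.7 ± 3.23, both below the filter. No endothelial marker was among the named rows, and 1 of 6 fibroblast markers was tested and not called. Genes were looked up by symbol throughout, and 813 of the 10184 rows carry none. A gene without a named row may therefore still be present. Normalised reads are the recovered reads scaled for each library's depth. RefSeq lists pseudogenes or like copies of Psma2, Psma3, Psma5, Psma6, Psma7, Psmb3, Psmb4, Psmb6, Psmb7, Psmc4, Psmc6, Psmd1, Psmd8, Psmd12, Psmd14, Psme1 and Psmg4, from 1 for Psma5 to 10 for Psmb3; how the authors' counting split reads between such copies is not stated, and the levels of these members are uncertain to that extent.

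No member passed the test between the genotypes. With limma on the deposited log2-like values, 0 of 42 members were called higher and 0 lower in ARSL KO at an adjusted p under 0.05, where 1.14% of the 8431 tested genes were called (0.261% higher and 0.878% lower). At an unadjusted p under 0.05 there were 2 members, Psmd7 and Psmd1, where the share over all tested genes was 13.5%. With limma-voom on the recovered reads the members called were also 0. The members' differences, ARSL KO minus WT, ran from -0.18 to 0.41 on the log2-like scale with a median of 0.13, against a median of 0.0089 over all tested genes. The difference was positive for 33 members and negative for 9. In 35 of the 42 its 95% interval lay within 0.585 of 0 in either direction, as it did in 7266 of all 8431 genes. On the log2-like scale this bound is near a 1.5-fold change for abundant genes and a larger change for weak ones.

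The positive balance depended on WT 3 and WT 4. Without these 2 libraries the difference was positive for 12 members and negative for 30, with a median of -0.044. Leaving out ARSL KO 4 alone, in which most members were low, moved the median the other way, to 0.17. Without WT 3, WT 4 and ARSL KO 4 there were 21 positive and 21 negative differences with a median of -0.0052, against 0.0061 over all tested genes, and again 0 members were called in either direction, with a background of 3.56% (1.34% higher and 2.22% lower). At an unadjusted p under 0.05 there were then 4 members, Psmd7 higher and Psmc4, Psmd8 and Psmg4 lower in ARSL KO, where the background was 15.9%. The median standard error of a member's difference was 0.136 with all libraries and 0.0889 without the 3. Over all tested genes it was 0.121 in both settings. The reads of all members together made up 1.22 ± 0.11% of the reads in ARSL KO and 1.09 ± 0.222% in WT (SD, n = 5 each). By library the share was 1.27%, 1.26%, 1.31%, 1.03% and 1.24% in ARSL KO 1 to 5, and 1.25%, 1.27%, 0.857%, 0.845% and 1.25% in WT 1 to 5. Outside the 3 libraries the share therefore lay between 1.24% and 1.31% in ARSL KO and between 1.25% and 1.27% in WT.

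**Figure D1:**
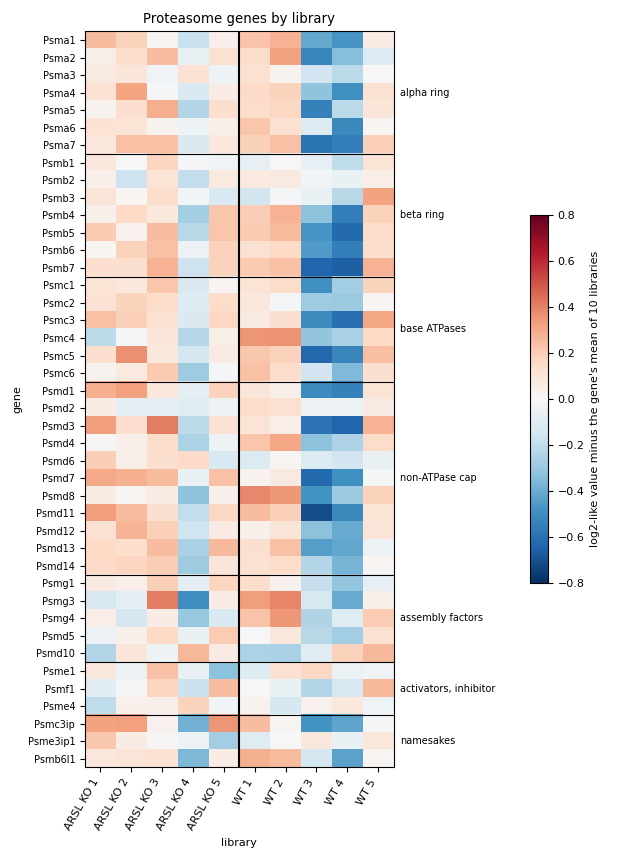
Level of each of the 42 members in each library, as the deposited log2-like value minus the member's mean over all 10 libraries (colour), with ARSL KO 1 to 5 left of WT 1 to 5 and members grouped by role. The columns of WT 3 and WT 4 are low for nearly all rows of the core and cap, ARSL KO 4 is low to a lesser degree, and Psme4 does not follow this.

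In the alpha ring, all 7 differences between the genotypes were positive (median 0.14) and none passed the test. Psma7, an alpha ring subunit, had 3107, 3451, 3453, 2697 and 3115 normalised reads in ARSL KO 1 to 5, and 3346, 3449, 1939, 1995 and 3349 in WT 1 to 5. Outside WT 3, WT 4 and ARSL KO 4 its WT values lay within the range of its KO values. The difference was 0.21 ± 0.168 (SE; limma adjusted p = 0.614), and -0.045 without the 3 libraries. Psma2, which contributes to the gate, had 379 ± 32.8 normalised reads in ARSL KO and 332 ± 88.9 in WT (SD, n = 5 each; difference 0.20, adjusted p = 0.557; 0.018 without the 3). Psma3 was the alpha subunit with the smallest difference, 0.087 (adjusted p = 0.70; -0.026 without the 3): it had 166, 169, 152, 173 and 151 normalised reads in ARSL KO, and 173.5, 159.7, 137, 129 and 156 in WT. It was also the only alpha subunit not lowest in ARSL KO 4 among the KO libraries. Psma1, Psma4, Psma5 and Psma6 had differences between 0.10 and 0.14, and between -0.065 and 0.011 without the 3. The median of the ring without the 3 libraries was -0.034.

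In the beta ring, 6 of 7 differences were positive (median 0.091) and none passed the test. Its catalytic subunits are Psmb5, with chymotrypsin-like, Psmb6, with caspase-like, and Psmb7, with trypsin-like activity. Psmb7 had 675, 673, 751.5, 541 and 699.5 normalised reads in ARSL KO 1 to 5, and 715, 728, 379, 375 and 752 in WT 1 to 5. WT 3 and WT 4 averaged 0.515 times the mean of the other WT libraries. The difference was 0.22 with a 95% interval of -0.17 to 0.62 (adjusted p = 0.622), and -0.061 without the 3 libraries. Psmb5 had 589, 518, 607.5, 426.5 and 596 normalised reads in ARSL KO, and 589, 609.7, 353, 314 and 563 in WT (difference 0.19, adjusted p = 0.638; -0.024 without the 3). Psmb6 had 335, 382, 397, 319 and 381 in ARSL KO, and 363.5, 374.5, 231, 214 and 369 in WT (difference 0.23, adjusted p = 0.51; 0.015 without the 3). The catalytic subunits thus shared a pattern in which the genotypes overlapped and WT 3 and WT 4 were lowest. Psmb2 was the beta subunit with a negative difference, -0.053 (adjusted p = 0.823; -0.054 without the 3), at 438 ± 46 normalised reads in ARSL KO and 455 ± 20.1 in WT (SD, n = 5 each). Psmb1, Psmb3 and Psmb4 had differences between 0.048 and 0.091, and between -0.094 and 0.041 without the 3, and the ring's median without the 3 libraries was -0.024.

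Among the ATPases, 5 of 6 differences were positive (median 0.16; -0.044 without the 3 libraries) and none passed the test. Psmc5, named here after its values were seen, had 1044, 1231, 1005, 857 and 994 normalised reads in ARSL KO, and 1108, 1082, 598.5, 643 and 1127 in WT (difference 0.20, adjusted p = 0.63; -0.053 without the 3). Psmc3 had 759 ± 72.7 in ARSL KO and 655 ± 187 in WT (SD, n = 5 each), with the ring's largest positive difference of 0.24 (adjusted p = 0.536; 0.0089 without the 3). Psmc2 had 627, 655, 642, 532 and 642 normalised reads in ARSL KO, and 614, 572, 465, 461 and 580.3 in WT. Apart from ARSL KO 4, each KO value lay above every WT value, and the difference was 0.19 (adjusted p = 0.428; 0.12, adjusted p = 0.544, without the 3).

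Psmc4 was the ATPase with a negative difference. It had 282, 328, 358, 278 and 344 normalised reads in ARSL KO, and 437, 438, 259, 271.5 and 376 in WT. With all libraries the groups overlapped, at 318 ± 36.3 and 356 ± 86.9 (SD, n = 5 each; difference -0.12, 95% interval -0.42 to 0.18, adjusted p = 0.722). Without the 3 libraries every KO value lay below every WT value, the difference was -0.31 with an interval of -0.51 to -0.12, and the adjusted p of 0.067 missed the threshold. Psmc4 has 3 copies in RefSeq. Psmc1 had a difference of 0.13 (-0.036 without the 3), and Psmc6 of 0.0044 (-0.092 without the 3).

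The other cap subunits had the largest median difference of the classes, 0.20, with 8 of 11 positive and none past the test. Psmd7, the structural partner of the deubiquitinase Psmd14, had 710.7, 699.5, 684, 546.5 and 675 normalised reads in ARSL KO 1 to 5, and 580.5, 600.0, 356, 392.0 and 564.5 in WT 1 to 5. In 4 of the 5 KO libraries it was above every WT library, and ARSL KO 4 lay below WT 1, WT 2 and WT 5. The means were 663 ± 66.7 in ARSL KO and 498.5 ± 115 in WT (SD, n = 5 each), the difference was 0.41 ± 0.14 (SE; 95% interval 0.11 to 0.71), and its adjusted p was 0.207, with a range of 0.097 to 0.45 over the alternatives. It was the member with the smallest p, and the difference was 0.24 (interval 0.068 to 0.40, adjusted p = 0.117) without the 3 libraries. Psmd1, a scaffold of the cap named here after its values were seen, had 1957, 2007, 1690, 1513 and 1813 normalised reads in ARSL KO, and 1706, 1638, 1105, 1079 and 1718 in WT (difference 0.32, adjusted p = 0.34; 0.14, adjusted p = 0.448, without the 3).

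Psmd14, the deubiquitinase that removes ubiquitin chains at the cap, had 513, 521, 531, 369 and 492 normalised reads in ARSL KO, and 501, 511, 384, 344 and 464 in WT. Its difference of 0.13 was within the spread of the libraries (adjusted p = 0.668; 0.06 without the 3). Psmd4, a ubiquitin receptor, had 137, 141, 154, 108 and 131 in ARSL KO, and 165, 178, 101, 109 and 154 in WT (difference -0.04, adjusted p = 0.919; -0.19, adjusted p = 0.386, without the 3). Psmd2, the other large scaffold, had 2413, 2187, 2199, 2161 and 2242 normalised reads in ARSL KO, and 2572, 2525, 2241, 2241 and 2426 in WT. Its negative difference of -0.10 (95% interval -0.28 to 0.087, adjusted p = 0.646) was -0.15 without the 3 (adjusted p = 0.40).

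Psmd8 is a lid subunit named here after its values were seen. It had 808, 785, 808, 610 and 797 normalised reads in ARSL KO, and 1026, 997, 545, 624 and 887 in WT. The 4 KO libraries other than ARSL KO 4 lay below WT 1, WT 2 and WT 5 and above WT 3 and WT 4. The difference was -0.06 (adjusted p = 0.897) with all libraries, and -0.26 (95% interval -0.43 to -0.093, adjusted p = 0.078) without the 3. Psmd8 has 2 copies in RefSeq. Psmd3, Psmd6, Psmd11, Psmd12 and Psmd13 had differences between 0.16 and 0.31, with no adjusted p under 0.438, and between 0.037 and 0.11 without the 3, and the median of the class without the 3 libraries was 0.081.

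**Figure D2:**
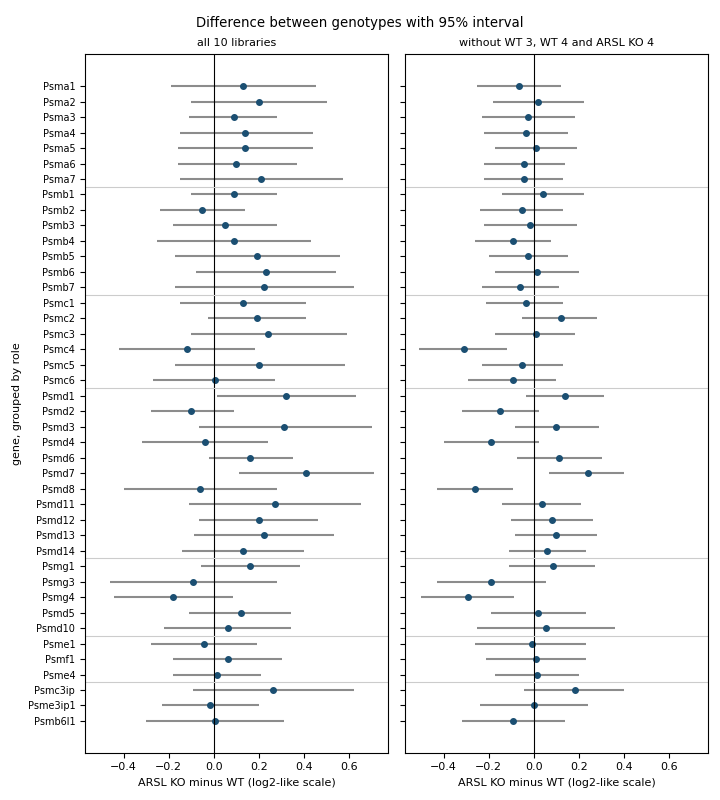
Difference ARSL KO minus WT of each member on the deposited log2-like scale with its 95% interval, for all 10 libraries and without WT 3, WT 4 and ARSL KO 4. With all libraries most points lie right of 0 and only the intervals of Psmd7 and Psmd1 exclude it. Without the 3 libraries the points are spread on both sides with a median of -0.0052.

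Of the assembly factors, 3 had positive and 2 negative differences (median 0.061; 0.019 without the 3 libraries) and none passed the test. Psmg4, a chaperone that acts with Psmg3 on the forming alpha ring, had 185, 157.5, 186, 136 and 159 normalised reads in ARSL KO, and 214, 234, 143, 162.5 and 208 in WT. Outside the 3 libraries every KO value lay below every WT value. The difference was -0.18 (95% interval -0.44 to 0.086, adjusted p = 0.55), and -0.29 (interval -0.50 to -0.089, adjusted p = 0.106) without the 3. Psmg4 has 3 copies in RefSeq. Psmg3 varied more within each genotype, with 165, 174, 258, 120.0 and 194 in ARSL KO, and 243, 254, 165, 130.0 and 191 in WT (difference -0.092, adjusted p = 0.843; -0.19 without the 3). Psmg1, of the other alpha ring chaperone, had 294 ± 24.5 in ARSL KO and 260 ± 37 in WT (difference 0.16, adjusted p = 0.515; 0.084 without the 3). Psmd5, a chaperone of the ATPase ring, had 162 ± 16.3 in ARSL KO and 147 ± 23 in WT (difference 0.12, adjusted p = 0.643; 0.019 without the 3; SD, n = 5 each). Psmd10, known as gankyrin and a partner of Psmc4, had a low level of 25.1 ± 6.65 normalised reads in ARSL KO and 23.3 ± 8.5 in WT (difference 0.061, adjusted p = 0.871; 0.055 without the 3).

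The activators and the inhibitor had the smallest median difference of the role classes, 0.012 (0.01 without the 3 libraries), the namesakes aside. Psme4, the nuclear activator PA200, had 374, 449.7, 449.6, 499 and 429 normalised reads in ARSL KO, and 445, 392.0, 449, 465 and 425 in WT. The groups overlapped throughout, at 440 ± 45.2 and 435 ± 27.9 (SD, n = 5 each), and the difference of 0.012 had a 95% interval of -0.18 to 0.21 (adjusted p = 0.968; 0.013 without the 3). Psme1, a subunit of the interferon-induced activator, had 159, 141, 180.0, 139.6 and 109 in ARSL KO, and 134, 164, 169.6, 141.5 and 144 in WT (difference -0.045, adjusted p = 0.887; -0.01 without the 3). Psmf1, the inhibitor PI31, had 191, 204, 236, 178 and 251 normalised reads in ARSL KO, and 206, 196.5, 168.5, 184.5 and 255 in WT (difference 0.061, adjusted p = 0.845; 0.01 without the 3). Of the namesakes, Psmc3ip had a difference of 0.26 (adjusted p = 0.513; 0.18 without the 3), Psmb6l1 of 0.0053 (-0.092 without the 3) and Psme3ip1 of -0.015 (4.7e-05 without the 3). The interferon-induced subunit Psmb9, which the name rule leaves out, had 90.5 ± 11.8 normalised reads in ARSL KO and 91.5 ± 9.39 in WT (SD, n = 5 each; difference -0.013, adjusted p = 0.966; 0.054 without the 3).

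With all 10 libraries, no member had KO values all above or all below the WT values, where 4.26% of the tested genes did (1.86% above and 2.40% below). Without WT 3, WT 4 and ARSL KO 4, Psmc2 and Psmd7 had KO values all above WT, against a background of 6.80%, and Psmc4, Psmg4, Psmd2, Psmd4 and Psmd8 had KO values all below, against 7.79%. These shares are 2 and 5 of 42 members. No alpha or beta subunit was among them, but the counts are small and near the background, from libraries left out after their values were seen. A difference between the classes was not tested and is not read from them.

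**Figure D3:**
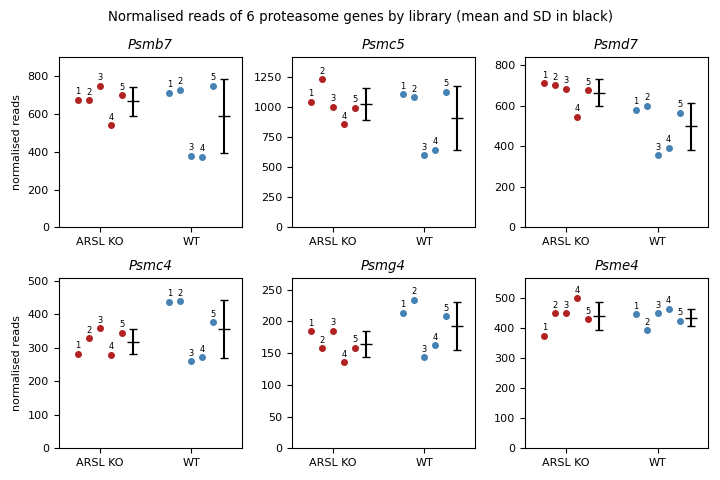
Normalised reads per library of Psmb7, Psmc5, Psmd7, Psmc4, Psmg4 and Psme4, with ARSL KO left of WT; points are libraries, numbered as in the labels, and the black line with its whiskers is the mean ± SD (n = 5 each). WT 3 and WT 4 are lowest in WT for the first 5 genes and highest in WT for Psme4, and ARSL KO 4 is lowest of the KO libraries for the first 5 and highest for Psme4.

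Within the WT group the libraries fell into 2 levels for most members. In WT 3 and WT 4 both values lay below those of WT 1, WT 2 and WT 5 for 37 of the 42 members, where the background was 29.0% of tested genes, and both lay above for Psme4 alone (for 0 members on the limma-voom scale), where the background was 27.2%. Psme1, Psmb3, Psmd10 and Psme3ip1 overlapped. Since these libraries were singled out from measured values, this is a description with no test. The median ratio of WT 3 and WT 4 to WT 1, WT 2 and WT 5 was 0.673 over the members, with a range of 0.515 to 1.19, and 0.994 over all tested genes. The members' share of all reads was 0.851% in WT 3 and WT 4 and 1.257% in WT 1, WT 2 and WT 5. In a bulk library, less RNA per cell and fewer cells with these transcripts cannot be told apart.

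In the core and the cap, both values were below the others for 7 of 7 alpha subunits (median ratio 0.662), 6 of 7 beta subunits (0.616), 6 of 6 ATPases (0.662) and 11 of 11 other cap subunits (0.647). Ratios were 0.515 for Psmb7, 0.568 for Psmb5, 0.603 for Psmb6, 0.582 for Psma7, 0.582 for Psmc3 and 0.562 for Psmc5. Psmd11, a lid subunit named after its values were seen, had 447.5 and 517 normalised reads in WT 3 and WT 4, and 906, 871 and 821 in WT 1, WT 2 and WT 5 (ratio 0.557). The core and cap subunits with a ratio over 0.80 were Psmd6 at 0.94, Psmb2 at 0.925, Psmb1 at 0.895, Psmd2 at 0.894, Psmb3 at 0.867 and Psma3 at 0.814. Among the assembly factors, 4 of 5 were below (median ratio 0.754), from 0.644 for Psmg3 to 0.794 for Psmg1, and Psmd10 had a ratio of 1.19 at its low level. Of the activators and the inhibitor, Psmf1 was below (0.806), Psme1 overlapped (1.06), and Psme4 was above (1.09) with 449 and 465 normalised reads in WT 3 and WT 4, and 445, 392.0 and 425 in WT 1, WT 2 and WT 5.

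ARSL KO 4 was the lowest of the KO libraries for 34 of 42 members, where the background was 27.2%, and the highest for Psma3, Psmd10 and Psme4, where it was 26.7%. The members summed to 23440 normalised reads in ARSL KO 4 and to 28229, 28377, 28737 and 27213 in ARSL KO 1, 2, 3 and 5. The same sum was 19863 in WT 3 and 19675 in WT 4, and 28328, 28616 and 28462 in WT 1, WT 2 and WT 5. ARSL KO 4 thus lay between WT 3 and WT 4 and the other 7 libraries. The chondrocyte markers ran the other way: 12 of the 13 were above in both WT 3 and WT 4 (median ratio 1.59), Sox5 was below, and 8 of the 13 were highest in ARSL KO 4 among the KO libraries. Col2a1, the main cartilage collagen, had 3987 and 3945 normalised reads in WT 3 and WT 4, and 2373, 2330 and 2246 in WT 1, WT 2 and WT 5. Their part in the proteasome levels was not tested.

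**Figure D4:**
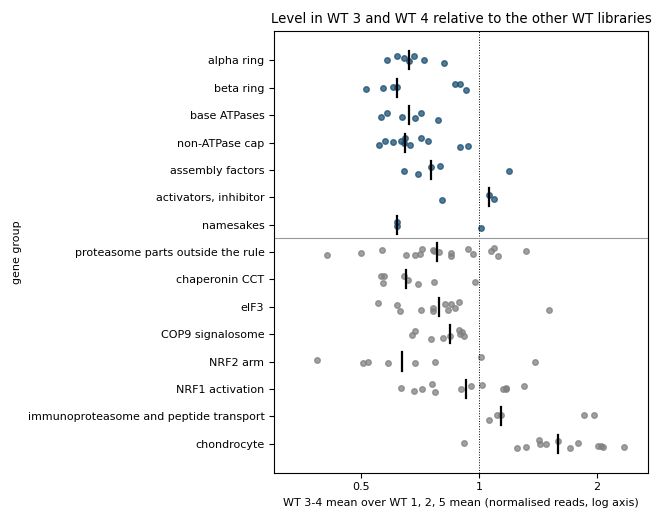
Ratio of the mean normalised reads of WT 3 and WT 4 to the mean of WT 1, WT 2 and WT 5 for each member (blue points, by role class) and each gene of the related lists (grey points), on a log axis; short black lines are group medians and the dotted line is a ratio of 1. The core and cap classes have medians between 0.616 and 0.662, the activators and inhibitor have 1.06, and the chondrocyte markers 1.59.

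Related gene groups showed no called member between the genotypes with all 10 libraries, where 1.14% of all tested genes were called. Of the proteasome parts that the name rule leaves out, such as the ubiquitin receptor Adrm1 and the ligase Ube3c, 18 of 20 were tested and 0 were called (median difference 0.13; 0.082 without the 3 libraries). Ube3c had 386.5, 331, 438.5, 395 and 377 normalised reads in ARSL KO, and 337, 300.0, 316, 241 and 349.9 in WT (difference 0.29, adjusted p = 0.231; 0.19 without the 3). In WT 3 and WT 4, 11 of the 18 were below and 2 above, with a median ratio of 0.779. Of the genes that encode NRF1 or act in its processing, activation or turnover, 12 of 12 were tested and 0 called (median difference 0.033; 0.0058 without the 3). The smallest p there was that of Faf2, with 266 ± 12.2 normalised reads in ARSL KO and 339 ± 39.4 in WT (SD, n = 5 each; difference -0.30, adjusted p = 0.148; -0.20 without the 3). Nfe2l1, which encodes NRF1 and is named here after its values were seen, had 1283 ± 133 in ARSL KO and 1292 ± 205 in WT (difference -0.0026, adjusted p = 0.992; 0.12 without the 3). Its transcript was higher in WT 3 and WT 4, at 1496 and 1504 normalised reads, than in WT 1, WT 2 and WT 5, at 1098, 1083 and 1281, which is the opposite direction to the subunits. NRF1 is controlled mainly as a protein, which these data do not measure.

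In the NRF2 arm, 8 of 9 genes were tested and 0 called (median difference 0.14; 0.052 without the 3). Nqo1, a quinone reductase, had 697, 692, 939.8, 585.5 and 1050 normalised reads in ARSL KO, and 602, 613, 287, 235 and 819 in WT (difference 0.69, adjusted p = 0.263; 0.29 without the 3), and 5 of the 8 were below in WT 3 and WT 4, with a median ratio of 0.635. The COP9 signalosome, a relative of the lid, had 0 of 9 called, with Cops8 at 277 ± 31.1 in ARSL KO and 212 ± 23.7 in WT (SD, n = 5 each; difference 0.33, adjusted p = 0.148; 0.27 without the 3), and 1 called without the 3 libraries, Cops6, which was lower (difference -0.35, adjusted p = 0.0483; -0.26, adjusted p = 0.271, with all). Of the 9, 6 were below in WT 3 and WT 4, with a median ratio of 0.843. In eIF3, whose core resembles the lid, 0 of 12 were called (Eif3j, difference 0.34, adjusted p = 0.419; 0.092 without the 3) and 10 were below in WT 3 and WT 4, with a median ratio of 0.792. The chaperonin CCT had 0 of 8 called (Cct2, difference 0.18, adjusted p = 0.352; 0.18 without the 3), a median difference of 0.25, or 0.078 without the 3, and 7 of 8 below in WT 3 and WT 4 with a median ratio of 0.65. Ubiquitin and its activating enzymes had 0 of 3 called (Uba6, difference 0.32, adjusted p = 0.148; 0.28 without the 3) and 2 above in WT 3 and WT 4. The immunoproteasome and peptide transport genes had 0 of 5 called (Tapbp, difference -0.37, adjusted p = 0.385; -0.084 without the 3), with 0 below and 2 above in WT 3 and WT 4. The counts for WT 3 and WT 4 stand beside the background of 29.0% of tested genes below and 27.2% above. The calls between the genotypes stand beside 1.14% of tested genes with all libraries and 3.56% without the 3. The differences between the lists were not tested.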

How the data were processed

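The authors deposited 1 table of log2-like, variance-stabilized values, normalized for library size, for 10184 genes in 5 ARSL KO and 5 WT libraries. Per the submitters' processing notes, bcl2fastq, STAR 2.7.11a, HTSeq and the rat build rn6 were used. Whether counting used strand is not stated in these sources. A count of 0 has the value 4.42 in all libraries. Inversion of the transformation gave whole reads in every library (largest departure 3.2e-09 reads). Differences on the log2-like scale understate the fold change of weak genes, so normalised reads are given beside them.

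A gene was tested where its mean exceeded that value by at least 1 (some 10.7 normalised reads). The test was run with limma 3.58.1 in R 4.3.3 (genotype only, intensity trend, two-sided), with Benjamini-Hochberg adjustment over 8431 genes and calls at an adjusted p under 0.05. The script was tested on simulated data. Pairs of libraries of a genotype differed beyond sampling noise and were kept separate. By chi-square per degree of freedom the closest pairs were WT 1 and WT 2 (1.85), ARSL KO 1 and ARSL KO 2 (2.19), and WT 3 and WT 4 (2.37). The least alike were WT 1 and WT 4 (21.33). Whether all libraries of a genotype are independent cultures was not tested. The members, lists, tests and alternatives were chosen with earlier results of these data known. The rule for named genes took, in each class, the largest positive and negative difference and the smallest p, the catalytic subunits, Psmd4, Psmd14, all activators, the inhibitor and all assembly factors, and the called or smallest-p gene of each list. Psmc5, Psmd1, Psmd8, Psmd11, Nfe2l1 and Psmb9 were added after their values were seen, and other members given with values or in ranges complete their class. RefSeq copies were counted by symbol, as a member's name followed by -ps or by l and a number. Copies under other names were not counted, so a member without a listed copy may still have some. Figures were drawn with matplotlib 3.10.9.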

Additional observations from a re-analysis of the deposited data

Results flagged for a closer look

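In ARSL KO 4, 4 of the named members stood well below the other KO libraries, by a gap that passed Dixon's 95% limit of 0.71 for 5 samples. All are cap subunits, but ARSL KO 4 was also the lowest KO library for 6 of 7 alpha and 5 of 7 beta subunits. Psmd8 had 610 normalised reads there, against 785 to 808 in the other KO libraries. Psmd7 had 547, against 675 to 711. Psmd14 had 369, against 492 to 531. Psmc2 had 532, against 627 to 655. In all, 76 groups of 5 libraries were examined, and chance alone flags about 1 in 20 groups where the groups are independent. These groups share the same libraries, and all 4 flags fell in ARSL KO 4, the lowest KO library for 34 of 42 members. For 37 of the 42 members WT 3 and WT 4 were low together, which can hide the gap of a single library. The number of flags therefore cannot show whether they arose by chance, and they are not read as setting these members apart.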

How the results depend on the processing

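Under each alternative, 0 members were called in either direction. The median difference over the members was 0.059 to 0.18 with 1 library left out. Without ARSL KO 4, 2 members had KO values all above WT, and without ARSL KO 5, 1 (range 0 to 2). The members with WT 3 and WT 4 both above the other WT libraries numbered 1 to 2 when a library was left out, and 0 with limma-voom. Without WT 3 and WT 4 the ATPases' median was -0.10 and 5 members had KO values all below WT. Without these and ARSL KO 4, 2 members were all above and 5 all below. Without WT 3 and WT 4 the sign changed for 21 of the 42 members, 12 of them among the genes named by the rule or after their values were seen: these, with 2 genes that are no members, were Psma2 (-0.022), Psma3 (-0.0069), Psma7 (-0.10), Psmb5 (-0.10), Psmb6 (-0.026), Psmb7 (-0.13), Psmc3 (-0.05), Psmc5 (-0.11), Psmd5 (-0.0089), Psmd11 (-0.047), Psmd14 (-0.028), Psmf1 (-0.041), Nfe2l1 (0.15) and Psmb9 (0.027). Of the members not so named, Psma1, Psma4, Psma5, Psma6, Psmb3, Psmb4, Psmc1, Psmc6 and Psmb6l1 also changed sign. Without the 3 libraries it changed for 14 members, the 9 just listed except Psma5 among them; of the named genes these were Psma3 (-0.026), Psma7 (-0.045), Psmb5 (-0.024), Psmb7 (-0.061), Psmc5 (-0.053), Psme3ip1 (4.7e-05), Nfe2l1 (0.12) and Psmb9 (0.054). With array weights the sign changed for Psme3ip1 (0.018), Nfe2l1 (0.11) and Psmb9 (0.029), with limma-voom for Psme3ip1 (0.014), Nfe2l1 (0.035) and Psmb9 (0.017), with quantile normalization for Psme4 (-0.0087), and with median centring for Nfe2l1 (0.0044). With 1 library left out, it changed in at least 1 fit for 11 members, Psma6, Psmb3, Psmb4, Psmc6 and Psmb6l1 among them; of the named genes these were Psmd4 (-0.13 to 0.033), Psmd8 (-0.19 to 0.029), Psme1 (-0.11 to 0.032), Psme3ip1 (-0.07 to 0.054), Psme4 (-0.031 to 0.064), Psmg3 (-0.21 to 0.02), Nfe2l1 (-0.061 to 0.063) and Psmb9 (-0.054 to 0.029). The cause was not tested; fewer samples entered each of the fits that left libraries out. Over all genes the calls numbered 22 higher and 74 lower, and 79 and 140 with array weights, 113 and 187 without the 3 libraries, 60 and 98 without WT 3 and WT 4, 15 and 45 with the stricter filter, and as few as 8 and 25 without ARSL KO 3. With limma-voom the median over all genes moved to 0.054. After the genotype's mean was subtracted for each gene, the remaining deviations of same-numbered libraries correlated between -0.293 and 0.587. By this measure, 2 of 5 KO libraries correlated best with the WT library of their number. With 5 libraries per genotype, and WT 3 and WT 4 apart from the other WT libraries, these correlations cannot decide whether the numbers pair the samples. The labels do not state a pairing. With the replicate block 0 members were called, and among all tested genes the calls were 32 higher and 104 lower. The depth of these libraries limits weak members such as Psmd10 most.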
